A study of Homo sapiens with 18 samples.

Results

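PC3 cells, an established human line from a bone metastasis of prostate cancer, were exposed to a peptide with a wild-type BC-box (WT peptide) or with a mutant BC-box (mutant peptide), and the transcriptomes were compared. The comparison takes 6 of the 18 libraries of the series, 3 for each peptide, paired by the replicate numbers 1 to 3 of the labels. It covers every gene with a mean normalised count of at least 10 over the 9 libraries of the peptide experiment, which is 13105 of the 20365 genes listed. All peptide-treated cells received 12500 nM for 24 h in medium with 2.5% serum, and 3 further libraries from cells given a scrambled peptide share these conditions. In the other experiment of the series, PC3 cells in 10% serum carried lentiviral short hairpins that target Elongin B (EloB KD), Elongin C (EloC KD) or serve as control (Control KD), with 3 libraries each. The peptide sequences, the residues that differ between them and any tag for entry into cells are not given in the sources used here. Whether the replicates came from separate cultures is not stated in the labels, and p-values therefore reflect the scatter among these libraries, which may be technical.

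The BC-box is a short helical motif by which substrate receptors bind Elongin C. Elongin C with Elongin B forms the adaptor that joins receptors such as VHL and the SOCS proteins to the scaffolds CUL2 and CUL5, and the RING protein RBX1 or RNF7 then brings in the ubiquitin-conjugating enzyme. The same heterodimer binds Elongin A through its BC-box and raises the rate at which RNA polymerase II elongates transcripts. A free BC-box peptide can in principle occupy the site on Elongin C that these partners use, and a mutant of the motif serves as its control.

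The 6 libraries held 31671205 to 34699856 counted reads each. Replicates of a group differed by 5.04 to 25.7 times sampling noise (chi-square of the reads over its degrees of freedom, 9 peptide libraries) and are therefore separate libraries. The largest component of variation, with 44.0% of the variance, set replicate 2 of every peptide apart from replicates 1 and 3. Along the second component (15.8%) the WT libraries lay at -6.92, -10.9 and -11.6 and the mutant libraries at 5.82, -4.61 and -4.92. Markers were those of the labelled line: summed PC3 epithelial markers were 95609 to 98344 normalised counts with the WT peptide and 95514 to 101392 with the mutant peptide. The prostate markers KLK2, KLK3 and FOLH1 were listed at 0.

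The transcriptomes of cells given the WT and the mutant peptide differed by small amounts in many genes. With the replicate number as a block, 536 of 13105 genes (4.09%) had an adjusted p under 0.05 in limma and are called here; 315 were higher (2.4%) and 221 lower (1.69%) with the WT peptide. All fold changes below are log2 of the WT over the mutant peptide, with the SE of the fit after ± (n = 3 each). The median size of a called log2 fold change was 0.22, and 21 called genes changed at least 1.5-fold, while the median over all genes tested was 0.003. In 353 called genes the 3 WT and the 3 mutant libraries did not overlap, which was so for 12.1% of all genes tested. In 535 the difference had 1 sign in all 3 pairs, while 20% of all genes were higher and 19% lower in all 3. The calls come from a fit on these same pair differences, so the shared sign is no separate evidence. Scaling by total reads turned the split to 240 higher and 310 lower. The calls rest on the pairing: without the block limma called 0 genes, with 898 at an unadjusted p under 0.05 and a smallest adjusted p of 0.114, edgeR called 0 and DESeq2 called 62. Omitting mutant replicate 1 gave 86 calls, omitting WT replicate 1 gave 197 and omitting WT replicate 2 gave 254.

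**Figure D1:**
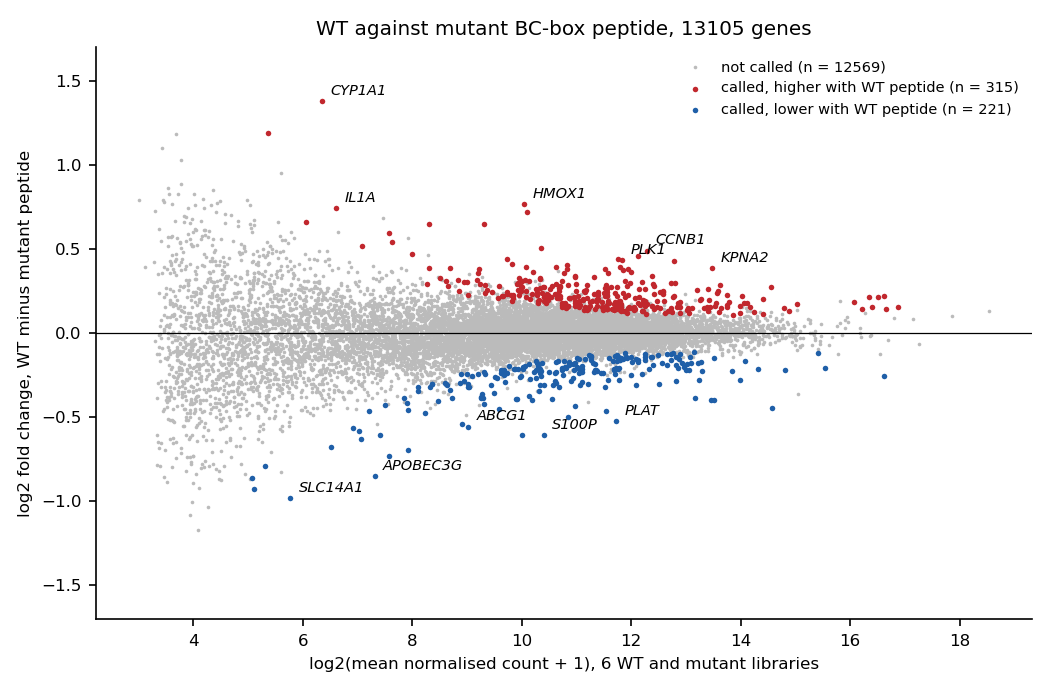
Log2 fold change of the WT minus the mutant peptide (vertical axis) against log2 of the mean normalised count plus 1 over the 6 libraries (horizontal axis), with 1 point for each of the 13105 genes tested. The 315 genes called higher (red) and 221 called lower (blue) lie mostly within 0.5 of 0, and CYP1A1 is the called gene with the highest value, at 1.38.

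The binding partners that the motif is known for were not called at the level of RNA. Of the 14 genes tested in the list of Elongins and the cullin 2 and 5 ligase core, 0 were called in limma, edgeR or DESeq2 and 0 had an unadjusted p under 0.05, against 4.09% of all genes called, and the fold changes ran from -0.05 to 0.06 with a median of 0.00. ELOC, which encodes the subunit that receives the BC-box, had normalised counts of 2703, 2924 and 2650.3 with the WT peptide and 2679.9, 2786 and 2731 with the mutant peptide (log2 0.01 ± 0.03, adjusted p 0.883). ELOB, its ubiquitin-like partner, had 3694, 3869 and 3575 with the WT peptide and 3762, 3728 and 3519.9 with the mutant peptide (log2 0.02 ± 0.04, adjusted p 0.873). In both genes the groups overlapped, and so did they in ELOA, which encodes the elongation factor subunit (log2 -0.01 ± 0.03, adjusted p 0.912).

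Among the receptors, VHL, which targets hydroxylated HIF-alpha for degradation, had 3611, 3868 and 3551 normalised counts with the WT peptide and 3338, 3785 and 3134 with the mutant peptide, a log2 difference of 0.11 ± 0.04 (adjusted p 0.0995). The fold changes of the scaffolds CUL2 and CUL5 and of RBX1 were -0.01, 0.01 and 0.00 on the log2 scale. In the wider list of BC-box receptors 2 of 41 genes tested were called, a share close to the 4.09% of all genes, both higher and both with overlapping groups. RAB40C, a Rab-related receptor with a SOCS box, changed by 0.26 ± 0.06 (adjusted p 0.0306) and ASB6, an ankyrin repeat receptor, by 0.15 ± 0.04 (adjusted p 0.0342).

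Of all lists examined, that of mitosis genes held the most called genes. Of 44 tested, 29 were higher with the WT peptide and 0 lower, against 2.4% of all genes called higher, with a median log2 fold change of 0.22 beside 0.003 over all genes. In 43 of the 44 the WT library was above its mutant partner in all 3 pairs, which was so for 20% of all genes, and in 31 the groups did not overlap. The exception was SPC24, a kinetochore subunit, whose log2 difference was -0.06 (adjusted p 0.519). The mean log2 level of the 44 genes, relative to the 9-library mean, was 0.248, 0.186 and 0.272 in the WT libraries and 0.026, -0.028 and 0.043 in the mutant libraries.

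**Figure D2:**
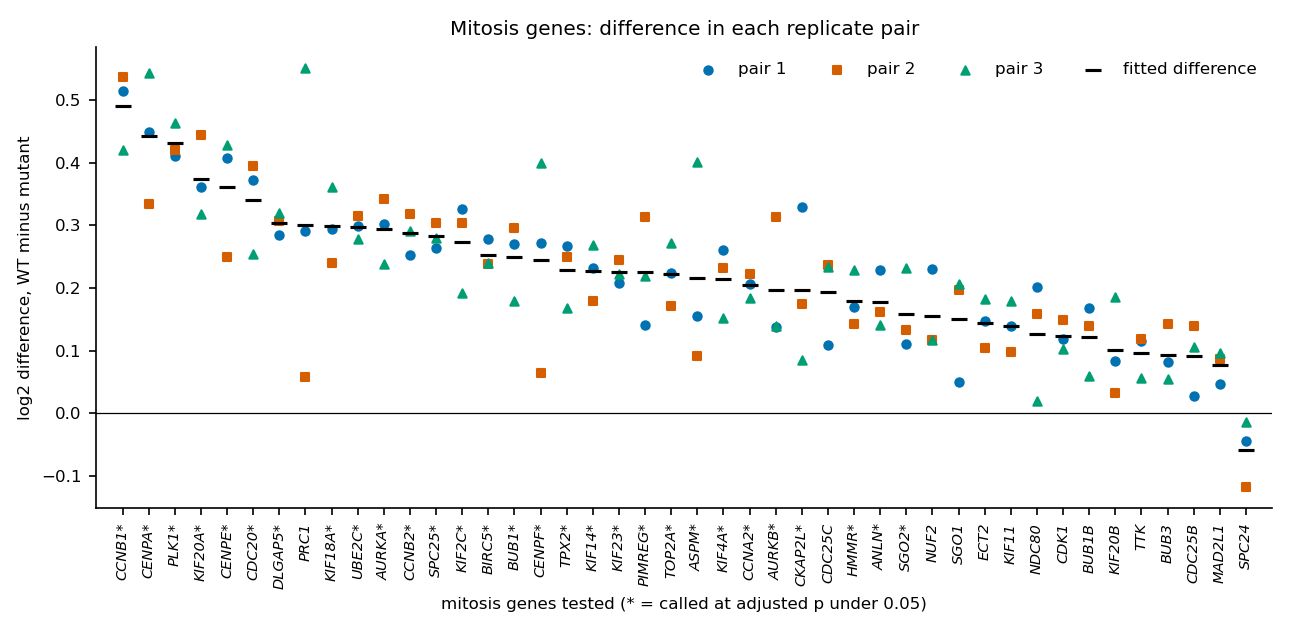
Log2 difference of the WT minus the mutant library in pairs 1, 2 and 3 (symbols) and the fitted difference (bar) for each of the 44 mitosis genes tested, in order of the fitted value. For 43 genes all 3 pairs lie above 0, from CCNB1 at 0.49 downwards, and SPC24 lies below 0 in all 3.

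Cyclins and kinases of mitotic entry were among the genes with the smallest p. CCNB1 encodes cyclin B1 (GRCh38, chromosome 5, 69167010 to 69178245), and its levels were 5676, 5976 and 5797 normalised counts with the WT peptide and 3976, 4120.5 and 4332 with the mutant peptide. Every WT library was above every mutant library, and CCNB1 rose 1.4-fold (log2 0.49 ± 0.06, adjusted p 0.000356 in limma). PLK1, the polo-like kinase that drives mitotic entry and centrosome maturation (chromosome 16, 23677656 to 23690367), had 4155, 4111 and 4274 with the WT peptide and 3125, 3072 and 3099 with the mutant peptide. The libraries within each group were close together and the groups far apart, and PLK1 rose 1.35-fold (log2 0.43 ± 0.04, adjusted p 0.000231). AURKA, which activates PLK1 at the centrosome, rose by 0.29 ± 0.04 and its chromosomal relative AURKB by 0.20 ± 0.05, and the cyclins CCNB2 and CCNA2 rose by 0.29 ± 0.06 and 0.20 ± 0.04. CDK1, the kinase that these cyclins activate, was not called, at 0.12 ± 0.03 (adjusted p 0.0542).

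Genes of the later steps of mitosis were higher as well. CDC20, the activator of the anaphase-promoting complex, had 5879, 5848 and 6034 normalised counts with the WT peptide and 4541, 4449 and 5059 with the mutant peptide (log2 0.34 ± 0.04, adjusted p 0.000291). KIF20A, a kinesin of the central spindle and cytokinesis, had 4178, 4144 and 4137 with the WT peptide and 3254, 3047 and 3318 with the mutant peptide (log2 0.37 ± 0.04, adjusted p 0.000426). CENPA, the histone H3 variant that marks centromeres, had 977, 927 and 1049 with the WT peptide and 716, 735 and 719.8 with the mutant peptide (log2 0.44 ± 0.07, adjusted p 0.00396). The groups did not overlap in any of these 3 genes. Outside the list, among the 15 highest fold changes, were UBE2S, which extends ubiquitin chains for the anaphase-promoting complex (log2 0.72 ± 0.13), PIF1, a DNA helicase (0.65 ± 0.12), and GAS2L3, a cytoskeletal linker of the midbody (0.51 ± 0.07). UBE2S was at 1509, 1299 and 1221 normalised counts with the WT peptide and at 829, 1103 and 584 with the mutant peptide and did not overlap, with the mutant libraries more widely spread.

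CCNB1, PLK1 and CENPA were lower still with the scrambled peptide. CCNB1 had 3483, 2819 and 3290.4 normalised counts in them, PLK1 2644, 2247 and 2642 and CENPA 607, 479.5 and 637. Against the scrambled peptide, 42 of 44 mitosis genes were called higher and 0 lower with the WT peptide (median log2 0.48), where 16.2% of all genes were called, 7.96% higher and 8.23% lower. With the mutant peptide 38 were called higher and 0 lower (median 0.26), where 8.3% of all genes were called, 3.72% higher and 4.59% lower. These 2 comparisons and that of WT with mutant share libraries, so the 3 medians are values side by side and not independent counts. The mean level of the list was -0.177, -0.379 and -0.191 in the scrambled libraries. Among fits without 1 WT or mutant library, the count of mitosis genes called higher was 9 without mutant replicate 1, 16 without WT replicate 2 and 23 to 29 without any of the others. Without the block it was 0 in limma and edgeR and 10 in DESeq2, among them PLK1 and CCNB1 (adjusted p 5.29e-07 and 1.17e-06 in DESeq2).

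**Figure D3:**
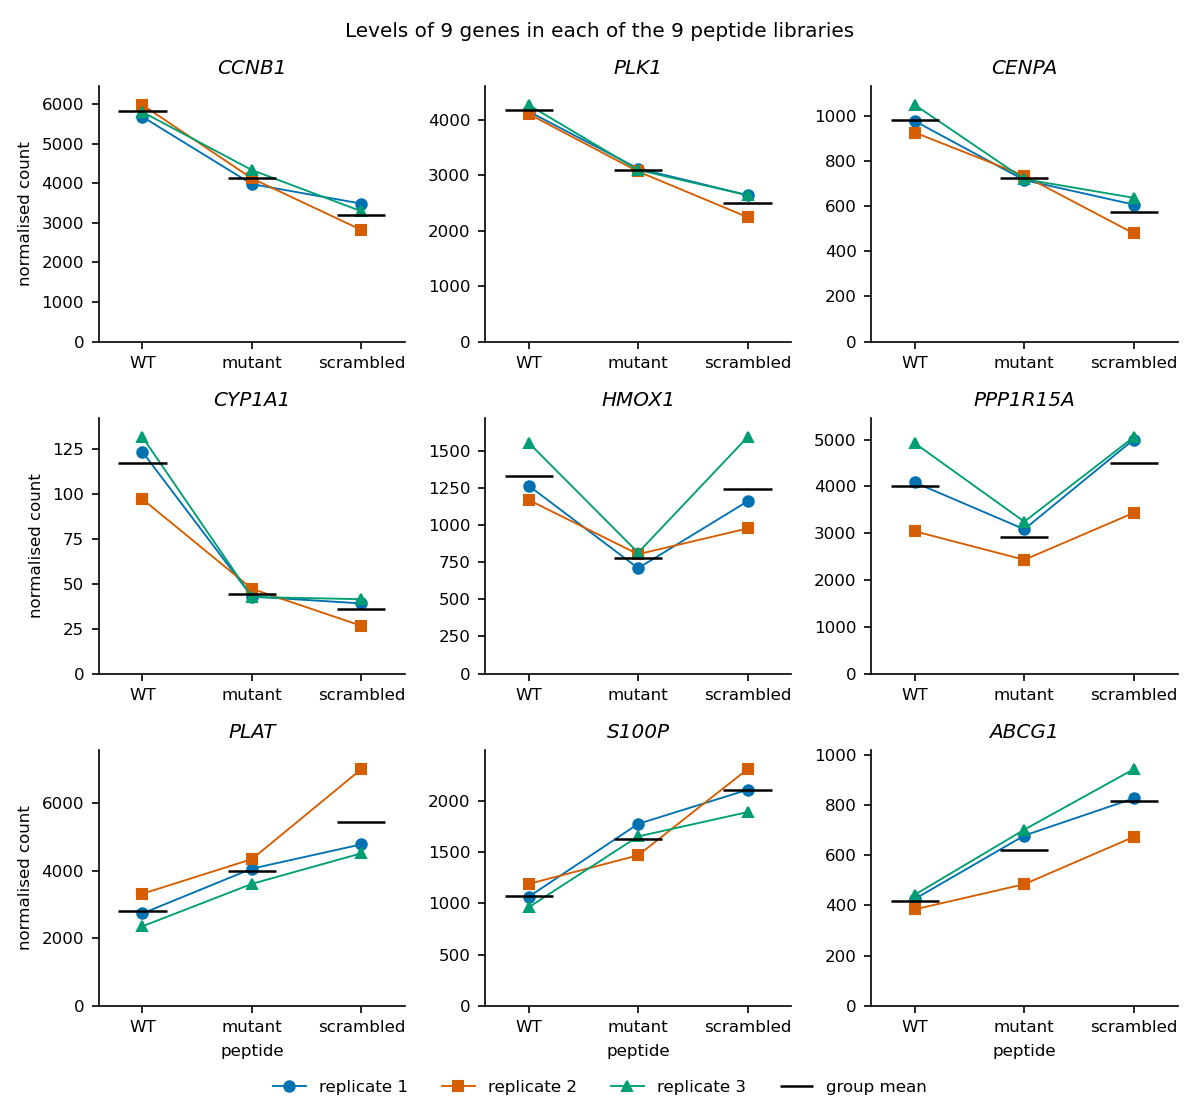
Normalised counts of 9 genes in each WT, mutant and scrambled library, with lines joining libraries of the same replicate number and black bars at the group means. CCNB1, PLK1 and CENPA are highest with the WT peptide and lowest with the scrambled peptide, HMOX1 and PPP1R15A are lowest with the mutant peptide in every replicate, and PLAT, S100P and ABCG1 run opposite to the mitosis genes.

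Mitosis genes are known to share promoter elements: CCAAT boxes bound by NF-Y and, close to the start, the CHR element by which the DREAM and MYB-MuvB complexes act. The 250 bases before the annotated start were taken from RefSeq (build GRCh38.p14), where 10551 of 13105 genes tested had an entry, and searched on both strands for 7 short motifs chosen after the calls were seen. The windows of 4 genes that carry the mitosis result are given, CCNB1 (chr5:69166900-69167149), PLK1 (chr16:23678639-23678888), CENPA (chr2:26785806-26786055) and CDC20 (chr1:43358731-43358980), all on the plus strand and 5′ to 3′ relative to the RefSeq start, which can differ from the GENCODE start given for the gene. Capitals mark CCAAT or its reverse complement ATTGG, and the CHR letters TTTGAA or TTCAAA. No matches overlapped each other.
CCNB1: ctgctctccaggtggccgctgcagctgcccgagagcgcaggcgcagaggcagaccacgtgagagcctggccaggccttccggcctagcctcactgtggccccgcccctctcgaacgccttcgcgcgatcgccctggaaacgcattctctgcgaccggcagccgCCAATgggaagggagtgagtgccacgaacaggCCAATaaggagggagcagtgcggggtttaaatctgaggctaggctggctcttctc
PLK1: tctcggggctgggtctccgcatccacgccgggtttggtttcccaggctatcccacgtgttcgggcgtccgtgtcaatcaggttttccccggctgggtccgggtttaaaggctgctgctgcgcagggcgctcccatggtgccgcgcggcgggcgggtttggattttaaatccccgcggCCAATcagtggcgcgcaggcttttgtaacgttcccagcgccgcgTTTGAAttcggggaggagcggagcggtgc
CENPA: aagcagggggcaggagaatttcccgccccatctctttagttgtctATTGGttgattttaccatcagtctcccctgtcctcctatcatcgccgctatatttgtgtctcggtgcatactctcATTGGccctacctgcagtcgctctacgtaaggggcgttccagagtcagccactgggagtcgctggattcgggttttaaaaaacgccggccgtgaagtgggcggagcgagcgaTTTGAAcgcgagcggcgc
CDC20: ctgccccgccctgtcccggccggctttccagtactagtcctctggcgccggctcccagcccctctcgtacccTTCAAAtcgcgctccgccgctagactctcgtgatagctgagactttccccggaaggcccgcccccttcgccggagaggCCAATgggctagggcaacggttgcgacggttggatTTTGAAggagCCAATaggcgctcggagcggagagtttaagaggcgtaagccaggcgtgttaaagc

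A CHR match began 29 bases before the start in PLK1, 18 in CENPA, and 178 and 65 in CDC20, whereas CCNB1 held 2 CCAAT boxes and no TTTGAA in this window. TTTGAA was present in 14 of the 24 called mitosis genes with an entry (58.3%) and in 19 of 37 tested ones (51.4%), against 8.39% of all genes tested and 13.6% of all 27305 promoters. CCAAT was present in 20 of the 24 (83.3%), against 35.2% of genes tested and 33% of all promoters. These matches describe the letters in the window only. Members called and not called both held them. The members tested include the called ones, so these 2 shares do not compare called with uncalled members. Among all genes called higher, which include the mitosis genes, 20.2% held TTTGAA and 49.8% CCAAT. Among genes called lower the shares were 11.1% and 32.8%.

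Genes of the G1/S transition and DNA replication had no higher calls. Of 43 tested, 0 were called higher and 5 lower with the WT peptide (1.69% of all genes were called lower), with a median log2 fold change of -0.05. MCM6, a subunit of the replicative helicase, had 7979, 7619 and 7262 normalised counts with the WT peptide and 9144, 8252 and 9202 with the mutant peptide (log2 -0.22 ± 0.04, adjusted p 0.00775). Its partner MCM3 fell by 0.17 on the log2 scale, the sliding clamp PCNA by 0.15, the S-phase cyclin CCNE2 by 0.24 and the transcription factor E2F2 by 0.26. The groups of MCM6 did not overlap. The number of lower calls was 0 without mutant replicate 1, and 1 without WT replicate 2, without WT replicate 3 or without mutant replicate 3.

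CYP1A1 had the highest fold change of all called genes. It encodes a cytochrome P450 that oxidises aromatic hydrocarbons and is the classical target of the aryl hydrocarbon receptor (chromosome 15, 74719542 to 74725610). Its normalised counts were 123, 96.9 and 131 with the WT peptide, 42.8, 47.1 and 42.6 with the mutant peptide and 39, 26.6 and 41.4 with the scrambled peptide. Every WT library was at more than 2 times every mutant library, and the gene rose 2.6-fold (log2 1.38 ± 0.18, adjusted p 0.000652 in limma). The mutant and scrambled peptides differed by 0.32 on the log2 scale (adjusted p 0.3). In all, 4 of 10 aryl hydrocarbon receptor targets tested were called, all higher, against 2.4% of all genes: CYP1B1 at 0.18 ± 0.04, the quinone reductase NQO1 at 0.16 ± 0.03 and the amino acid transporter SLC7A5 at 0.28 ± 0.03 besides CYP1A1. CYP1A1 thus changed far more than the other 3, and 2 of the list were called without mutant replicate 1, without WT replicate 1 or without WT replicate 2.

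The 250 bases before the start of CYP1A1 (chr15:74725529-74725778, minus strand, RefSeq, GRCh38.p14) are shown because the gene leads the comparison. Capitals mark GCGTG, the core letters of the xenobiotic response element, which occurred 57 bases before the start.
CYP1A1: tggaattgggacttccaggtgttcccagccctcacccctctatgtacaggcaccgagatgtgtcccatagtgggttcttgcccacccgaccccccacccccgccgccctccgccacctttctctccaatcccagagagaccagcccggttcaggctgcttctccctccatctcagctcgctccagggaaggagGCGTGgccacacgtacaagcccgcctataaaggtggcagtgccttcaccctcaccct

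The same 5 letters or their reverse complement were present in 31.9% of all promoters and 45.3% of genes tested, and TTTGAA and CCAAT are given above. Of the other motifs, the C/EBP-ATF element TGATGCAA was present in 0 of 8 called and 2 of 33 tested members of the ATF4 list with an entry, and in 0.417% of genes tested and 0.82% of all promoters. The antioxidant element TGACNNNGC was in 1 of 3 called and 5 of 23 tested NRF2 targets, 12.1% of genes tested and 11% of all promoters. The hypoxia core ACGTG was in 4 of 6 called and 16 of 30 tested HIF targets, 23.1% of genes tested and 18.7% of all promoters. The E2F site TTTCCCGC was in 2 of 4 called and 8 of 36 tested G1/S genes, 2.25% of genes tested and 1.42% of all promoters.

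For HMOX1, PPP1R15A, DDIT3 and ATF3, genes known to respond to stress, the mutant peptide stood below both other peptides. HMOX1, which encodes haem oxygenase 1 and is a target of NRF2 (chromosome 22, 35380361 to 35394214), had 1264, 1168 and 1553 normalised counts with the WT peptide, 709, 803 and 814 with the mutant peptide and 1159, 977 and 1592 with the scrambled peptide. It rose 1.7-fold between WT and mutant (log2 0.77 ± 0.09, adjusted p 0.000314 in limma). Against the scrambled peptide the WT peptide differed by 0.12 (adjusted p 0.411) and the mutant peptide by -0.65 (adjusted p 0.000494). Of the 30 NRF2 targets tested, 4 were higher and 1 lower, with 2.4% and 1.69% of all genes so called. GCLM, the modifier subunit of glutathione synthesis, rose by 0.25 ± 0.04 and UGDH, which makes UDP-glucuronate, by 0.21 ± 0.04, whereas GSR, glutathione reductase, fell by 0.16.

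The list of ATF4 targets and amino acid supply had 9 of 40 genes higher and 0 lower, against 2.4% of all genes called higher, with a median of 0.04 beside 0.003. PPP1R15A, the phosphatase subunit that reverses eIF2-alpha phosphorylation, had 4085, 3042 and 4922 normalised counts with the WT peptide, 3085, 2433 and 3247 with the mutant peptide and 5002, 3437 and 5055 with the scrambled peptide. Replicate 2 was lowest with every peptide and the groups overlapped, but the WT library was above its mutant partner in all 3 pairs (log2 0.44 ± 0.05, adjusted p 0.000294). DDIT3, the transcription factor CHOP, had 1307, 1114 and 1297 with the WT peptide, 963, 955 and 1075 with the mutant peptide and 1498, 1379.5 and 1387 with the scrambled peptide (log2 WT minus mutant 0.31 ± 0.06). Its groups of WT and mutant libraries did not overlap. SLC7A5 and SLC3A2, the subunits of the large neutral amino acid transporter, rose by 0.28 ± 0.03 and 0.20 ± 0.03.

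The other called genes of the list were TRIB3 (0.15), SESN2 (0.21), ATF5 (0.18), CEBPG (0.16) and YARS1 (0.13), all on the log2 scale. For SLC7A5 the mutant and scrambled peptides were close (log2 -0.02, adjusted p 0.786), unlike PPP1R15A (-0.61, adjusted p 1.63e-05) and DDIT3 (-0.51, adjusted p 9.64e-05). ATF3, a stress-induced bZIP factor, had 2392, 1227 and 2636 with the WT peptide, 1868, 1052 and 1697 with the mutant peptide and 4090.2, 1838 and 3165 with the scrambled peptide (log2 WT minus mutant 0.40 ± 0.07, adjusted p 0.00775). IL1A, the alarmin interleukin 1 alpha, had 157, 69.2 and 146 with the WT peptide and 70.3, 65.4 and 72.6 with the mutant peptide, and replicate 2 of the WT peptide was at the level of the mutant libraries (log2 0.74 ± 0.18, adjusted p 0.0363). The ATF4 list had 2 higher calls without mutant replicate 1, and 4 to 7 without any other single WT or mutant library.

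Inflammatory genes showed no shared direction between WT and mutant peptide, where 2.4% of all genes were called higher and 1.69% lower. Of 24 NF-kB targets and cytokines tested, IL1A and RELB, a subunit of the non-canonical pathway (0.47 ± 0.12), were higher, and IL1B (-0.21 ± 0.05) and the inhibitor TNIP1 (-0.15 ± 0.03) lower, with a median of 0.06. RELB was level in pair 2 (239 with the WT and 241 with the mutant peptide), and its groups overlapped. Its adjusted p was 0.0474 in limma and reached 0.276 when 1 library was left out. Against the scrambled peptide 0 of the 24 were higher and 13 lower with the WT peptide, where 8.23% of all genes were lower. RELB was among the lower ones (log2 -0.42, adjusted p 0.0317 in limma). With the mutant peptide 0 were higher and 16 lower, where 4.59% of all genes were lower. Of the 33 immediate early genes 3 were higher and 2 lower. ATF3 was the largest, the AP-1 subunits FOSL1 and FOSL2 rose by 0.18 ± 0.03 and 0.14 ± 0.04, while DUSP6 and SPRY4, feedback inhibitors of ERK signalling, fell by 0.38 and 0.21. Of 36 interferon-stimulated genes 2 were lower, OAS2 at -0.31 ± 0.08 and PARP14 at -0.16 ± 0.04, and 0 higher.

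S100P, a calcium-binding protein secreted by many carcinomas (chromosome 4, 6693069 to 6697170), had 1064, 1189.6 and 962 normalised counts with the WT peptide, 1776, 1469 and 1654 with the mutant peptide and 2109, 2310.0 and 1891 with the scrambled peptide. The 3 groups did not overlap, and S100P fell by 0.61 on the log2 scale between WT and mutant (SE 0.07, adjusted p 0.000517 in limma). PLD1, a phospholipase that makes phosphatidic acid, had 742, 906 and 812 with the WT peptide and 1264, 1278 and 1192 with the mutant peptide (log2 -0.61 ± 0.07, adjusted p 0.000314). For PLD1 the scrambled libraries, at 1170.3, 1144 and 943, lay between the WT and the mutant ones. DACH1, a transcriptional repressor, had 123, 134 and 143 with the WT peptide and 208, 199 and 202 with the mutant peptide (log2 -0.61 ± 0.10, adjusted p 0.00408).

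SLC14A1, a urea transporter, had the most negative fold change of all called genes, at low counts of 44, 34.1 and 27.5 with the WT peptide and 99.9, 64.5 and 51.3 with the mutant peptide (log2 -0.98 ± 0.19, adjusted p 0.00945). APOBEC3G, a cytidine deaminase that restricts retroviruses, had 166, 77.7 and 94.7 with the WT peptide and 292, 136 and 183 with the mutant peptide (log2 -0.85 ± 0.10, adjusted p 0.0004). Replicate 1 was the highest of both groups for each of these genes. The groups of APOBEC3G overlapped, while all 3 pairs differed the same way. ANKRD36C, an ankyrin repeat gene with the smallest p of all, had 1521, 1573 and 1501 with the WT peptide and 2194, 2264 and 2041 with the mutant peptide (log2 -0.50 ± 0.04, adjusted p 9.01e-05). ANKRD36C, APOBEC3G and the metallothionein MT1F (-0.57 ± 0.12) have near-identical relatives, and how reads shared between copies were counted is not given in the sources used here. SLAMF9 (-0.73), DEPP1 (-0.69), SLC26A5 (-0.68), LXN (-0.63) and PIGZ (-0.58) were also among the 15 lowest fold changes that the naming rule picked.

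PLAT and ABCG1 were among the 15 lowest fold changes. PLAT, which encodes tissue plasminogen activator, had 2731, 3313 and 2351 normalised counts with the WT peptide, 4056, 4338 and 3606 with the mutant peptide and 4773, 6998 and 4509.6 with the scrambled peptide (log2 WT minus mutant -0.53 ± 0.06, adjusted p 0.000379). Its relative PLAU, urokinase, went the other way and rose by 0.26 ± 0.05 (adjusted p 0.0143). The membrane protease MMP14 fell by 0.18 and the stromelysin MMP10 by 0.46, so of the 16 protease genes tested 1 was higher and 3 lower (1.69% of all genes were called lower). ABCG1, which exports cholesterol to lipoproteins, had 426, 384 and 443 with the WT peptide, 679, 485 and 702 with the mutant peptide and 827, 674 and 943 with the scrambled peptide (log2 WT minus mutant -0.56 ± 0.07, adjusted p 0.000652). ABCA1, which loads apolipoprotein A-I, fell by 0.39. With TM7SF2, a sterol reductase (-0.31 ± 0.07), these were the 3 of 28 genes called on the list of cholesterol synthesis and uptake, and the median was -0.08. Of 20 genes of fatty acid synthesis 2 were lower, ACSS2 at -0.24 ± 0.04 and SCD at -0.21 ± 0.05.

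HIF targets and glycolytic genes were called lower in 6 of 33 cases and higher in 1 (median -0.12). Over all genes tested 1.69% were called lower and 2.4% higher. The difference was largest in replicate 1. BHLHE40, a transcriptional repressor induced by hypoxia, had 14379.5, 15659 and 13831 with the WT peptide and 20031, 17287 and 15977 with the mutant peptide (log2 -0.28 ± 0.05, adjusted p 0.00775). PDK1, a kinase that inhibits pyruvate dehydrogenase, fell by 0.30, MXI1, a MYC antagonist, by 0.27, and ALDOC, an aldolase, by 0.39. PGK1 (-0.25) and BNIP3L (-0.25) were the other lower members, and the lipid droplet protein PLIN2 (0.26 ± 0.05) was the higher one. The mean level of the list was -0.150, -0.045 and -0.147 in the WT libraries and 0.249, -0.001 and -0.155 in the mutant libraries, so only replicates 1 and 2 had the mutant above the WT library. The number of lower calls was 0 without mutant replicate 1, 1 without WT replicate 1 and 10 without WT replicate 3. In the scrambled libraries the level was 0.317, 0.072 and -0.139, with replicate 1 highest again.

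The genes encoded by mitochondrial DNA were slightly higher. Of 13 tested, 7 were called higher and 0 lower (median log2 0.15), where 2.4% of all genes were called higher. All 13 were higher in all 3 pairs, which was so for 20% of all genes. MT-ND2, a subunit of respiratory complex I, had 93808, 130895 and 101644 normalised counts with the WT peptide and 81485, 106044 and 91125 with the mutant peptide (log2 0.22 ± 0.03, adjusted p 0.0028). MT-ATP6 (0.21) and MT-CYB (0.21) changed by like amounts. The groups overlapped in all 13, with replicate 2 high for every peptide, and 0 were called in a fit without replicate 2 of all peptides. These genes took 3.49%, 4.82% and 4.03% of reads with the WT peptide and 3.32%, 4.29% and 3.64% with the mutant peptide. Of 38 nuclear genes of oxidative phosphorylation 1 was called, COX8A (0.13 ± 0.03).

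Several lists held few calls or none, beside 4.09% of all genes called. Among 26 pro-apoptotic genes 0 were called in limma or edgeR (5 at an unadjusted p under 0.05), and the smallest adjusted p was 0.104 for CYCS, cytochrome c, at 0.10. Of 13 anti-apoptotic genes BIRC5, which encodes survivin (0.25 ± 0.03), was higher and BCL2L1, which encodes BCL-XL (-0.12 ± 0.03), lower. No member passed in limma among 46 large and 31 small subunit ribosomal protein genes (4 and 5 at an unadjusted p under 0.05), 34 proteasome subunits (7), 32 translation initiation factors (9), 26 splicing regulators (5) and 26 HOX genes (5). DESeq2 with the block called 1 small subunit gene and 1 initiation factor among these, and edgeR 0. Calls were more frequent among p53 targets, in a line known to lack functional p53, where 4 of 24 were higher, against 2.4% of all genes (median 0.00): GDF15 (0.36 ± 0.06), AEN (0.19 ± 0.04), SESN2 and GADD45A (0.26 ± 0.07). On the Polycomb list PHF19, a PRC2 accessory protein (0.28 ± 0.04), and BMI1, a PRC1 subunit (0.25 ± 0.06), were higher and CBX7 (-0.24 ± 0.06) lower, of 20 tested. The endothelial markers KDR (-0.31 ± 0.06) and PECAM1 (-0.29 ± 0.06) were lower, and CDH5 and VWF, which define that cell type, averaged 1.54 and 1.75 normalised counts over the 9 libraries.

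Small counts were found on the remaining lists, where 2.4% of all genes were called higher and 1.69% lower. Of 41 genes of ribosome biogenesis 3 were higher, RRS1 (0.29 ± 0.07), BOP1 (0.20 ± 0.05) and RRP9 (0.18 ± 0.04). Of 25 heat shock chaperone genes HSPB1, a small chaperone (0.23 ± 0.05), and HSF1, the master regulator (0.15 ± 0.03), were higher. Of 28 autophagy genes the receptor SQSTM1 (0.24 ± 0.03) and the conjugating enzyme ATG3 (0.14 ± 0.03) were higher and the receptor NBR1 (-0.14 ± 0.04) lower, and of 29 lysosomal genes TFE3 (0.15 ± 0.04) was higher. Of 22 YAP and TAZ targets AJUBA (0.36 ± 0.04) and AXL (0.22 ± 0.04) were higher and IGFBP3 (-0.31 ± 0.05) and NT5E (-0.17 ± 0.04) lower. Of 28 TGF-beta and mesenchymal genes SKIL (0.29 ± 0.06) was higher and FST (-0.23 ± 0.04) lower. On the list of 11 EGF receptor ligands and receptors AREG, amphiregulin (0.28 ± 0.07), was higher, and among 19 histone genes H2AX, the variant phosphorylated at DNA breaks (0.38 ± 0.07), was higher. Of 32 genes of folding in the endoplasmic reticulum CRELD2 (0.18 ± 0.04) was higher and SEC24D (-0.14 ± 0.04) lower, and MXI1 was the call among 12 genes of the MYC and MAX network.

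Among the highest fold changes several genes belonged to no list. DHRS2, a mitochondrial short-chain reductase, had 669, 863 and 773 normalised counts with the WT peptide and 452, 599 and 427 with the mutant peptide (log2 0.65 ± 0.08, adjusted p 0.000662 in limma). ID3, an inhibitor of basic helix-loop-helix factors, had 246, 181 and 261 with the WT peptide and 147, 129 and 177 with the mutant peptide (log2 0.60 ± 0.10, adjusted p 0.0045). The groups did not overlap in either gene. In the scrambled libraries DHRS2 was at 563, 558 and 524 and ID3 at 186, 129 and 181. SHH, the Hedgehog ligand (0.54 ± 0.12), and SNAPC1, a subunit of the complex that starts small nuclear RNA transcription (0.46 ± 0.07), rose with overlapping groups, and the secreted protein CRISPLD2 (0.52 ± 0.12) rose without overlap.

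**Figure D4:**
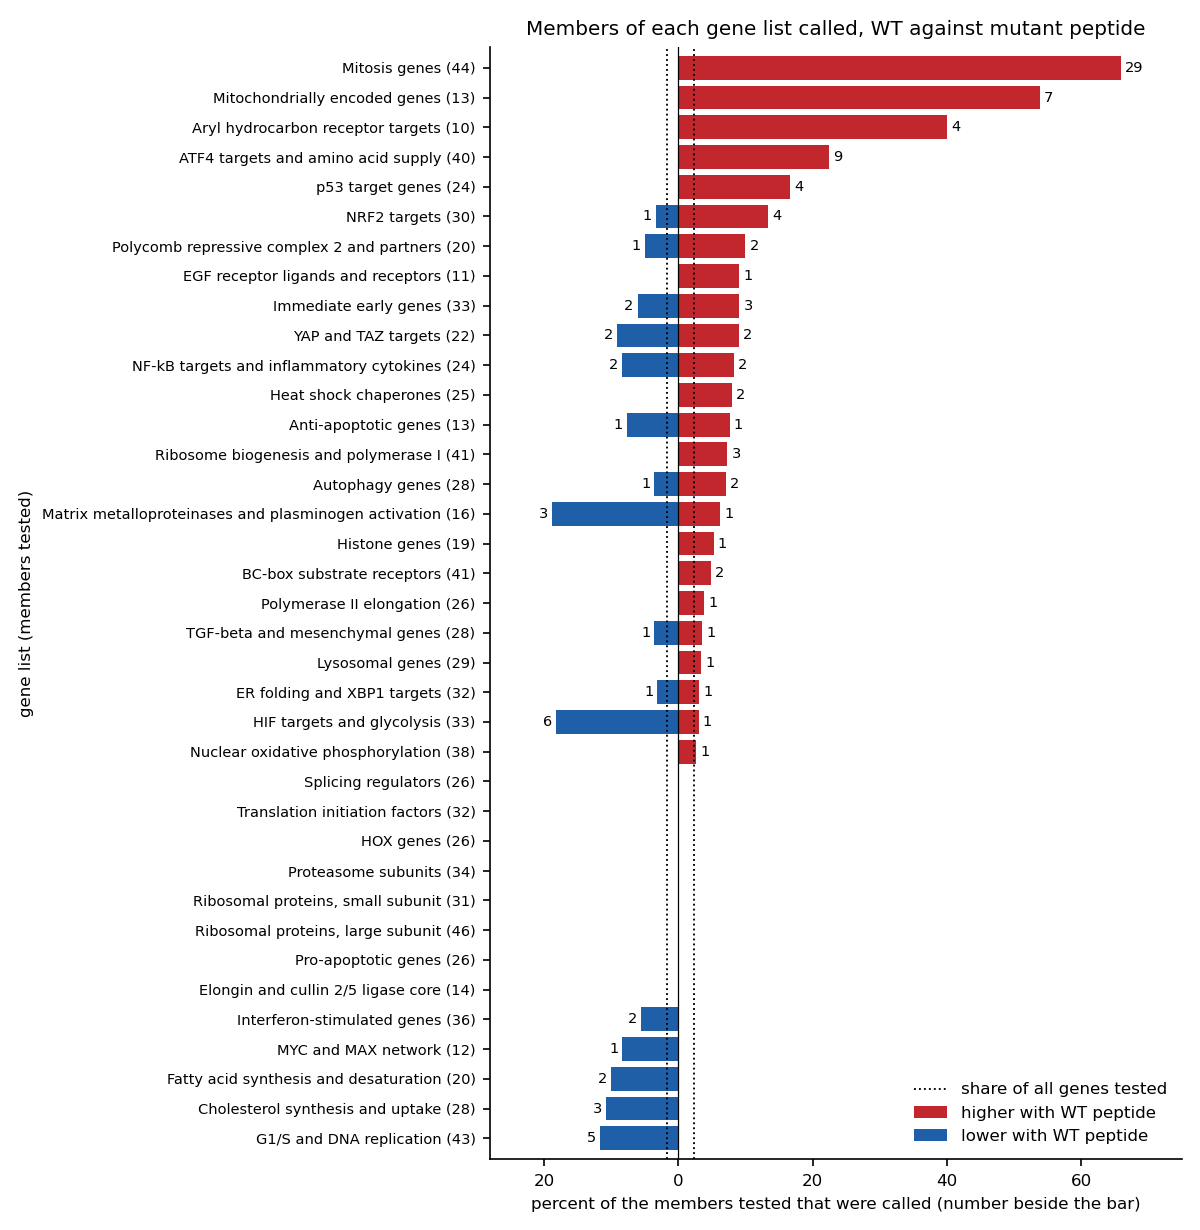
Percent of the members tested that were called higher (red, to the right) or lower (blue, to the left) with the WT peptide, for each gene list with at least 10 members tested; numbers beside bars are counts and dotted lines the shares of all genes, 2.4% and 1.69%. Mitosis genes stand highest with 29 of 44, and 8 lists have no call.

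The Elongin knockdowns come from other libraries, so their values for the called genes can be set beside those of the peptides. ELOB had 596, 478 and 535 normalised counts in EloB KD, against 2626, 4118 and 4950.3 in Control KD. For ELOC, EloC KD gave 492, 497 and 558 normalised counts and Control KD 4797, 4097 and 4547. Each targeted RNA was thus lower in all 3 of its knockdown libraries than in any control library. Against Control KD, EloB KD had 36.3% and EloC KD 57% of 13764 genes called, and the 2 knockdowns share the Control KD libraries. Of the 315 genes higher with the WT peptide, 156 (49.5%) were higher in EloC KD and 32 (10.2%) lower, where 28.7% and 29.2% of the genes tested in both experiments were. In EloB KD 32 (10.2%) were higher and 57 (18.1%) lower, against 16.9% and 19.6%. Of the 221 lower genes, 148 (67%) were lower in EloC KD and 32 (14.5%) higher, while in EloB KD 96 (43.4%) were lower and 30 (13.6%) higher. The genes called between the peptides were 4.86% of the EloC KD calls and 4.51% of the EloB KD calls. Across the 536 called genes the Spearman correlation of the log2 fold changes was 0.489 with EloC KD and 0.163 with EloB KD, and across all 13074 genes 0.255 and 0.030; genes are not independent replicates, and these are descriptions.

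**Figure D5:**
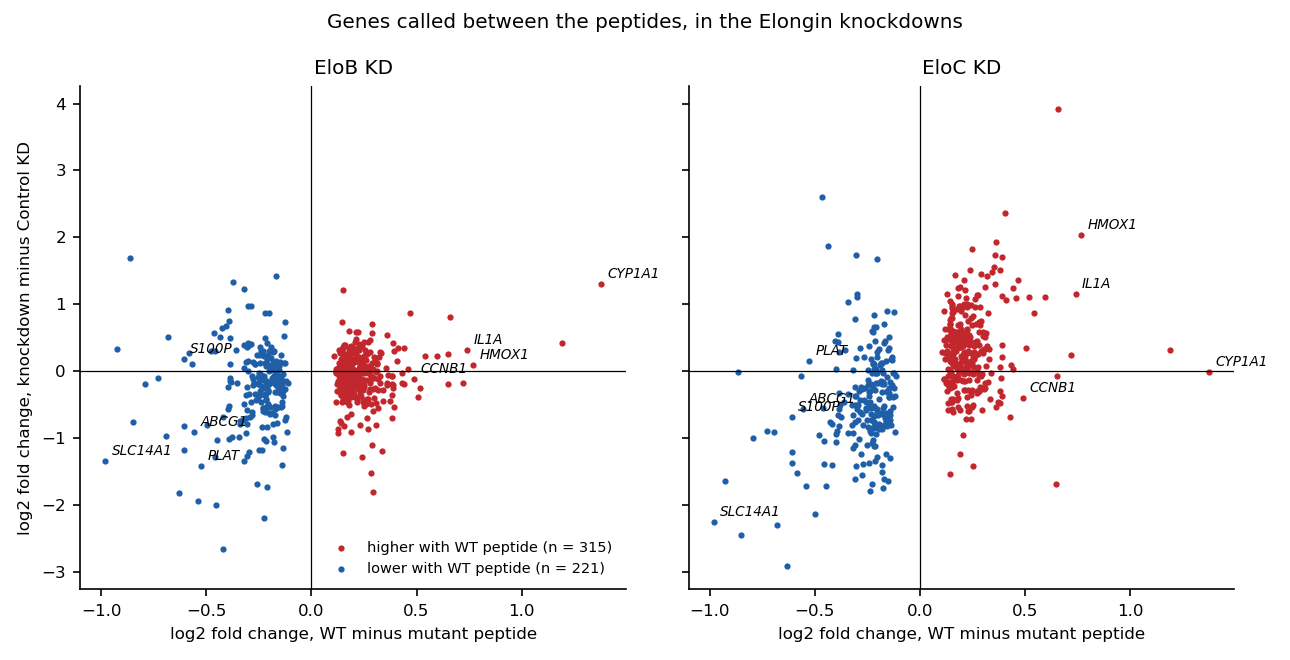
Log2 fold change of each knockdown minus Control KD (vertical axis; EloB KD left, EloC KD right) against the log2 fold change of the WT minus the mutant peptide (horizontal axis) for the 536 genes called between the peptides. In EloC KD most genes lower with the WT peptide lie below 0, while the higher ones lie on both sides, with HMOX1 at 2.03 and CCNB1 at -0.40.

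Mitosis genes were seldom called in either direction in the knockdowns. Of the 44, 0 were higher and 2 lower in EloB KD (median log2 -0.16), where 16.9% and 19.6% of the genes tested in both experiments were. In EloC KD 2 were higher and 9 lower (median -0.24), where 28.7% and 29.2% were. CCNB1 had log2 values of -0.11 in EloB KD (adjusted p 0.606) and -0.40 in EloC KD (adjusted p 0.0534), and PLK1 -0.03 and 0.09. BIRC5, higher with the WT peptide, fell by 1.42 in EloC KD (adjusted p 7.74e-05). The difference between peptide and knockdown changes was not tested, since the experiments have their own controls and serum.

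HMOX1, ATF3, PPP1R15A and DDIT3, all higher with the WT than with the mutant peptide, were also measured in the knockdowns. Against the scrambled peptide the WT peptide was lower for ATF3 (log2 -0.54, adjusted p 0.000197 in limma) and PPP1R15A (-0.17, adjusted p 0.0294). HMOX1 was not called there (0.12, adjusted p 0.411). In EloC KD, HMOX1 rose by 2.03 (adjusted p 5.53e-07), ATF3 by 2.36 (adjusted p 3.08e-06), PPP1R15A by 1.24 (adjusted p 3.68e-06) and DDIT3 by 1.25 (adjusted p 5.27e-05) on the log2 scale. In EloB KD, PPP1R15A rose by 0.35 (adjusted p 0.0111), whereas HMOX1 was at 0.09 (adjusted p 0.493), ATF3 at 0.16 (adjusted p 0.463) and DDIT3 at 0.11 (adjusted p 0.575). CYP1A1 rose by 1.30 in EloB KD (adjusted p 0.00011) and was at -0.02 in EloC KD (adjusted p 0.933).

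In all, 170 genes called between the peptides were called in both knockdowns, which is 31.7% of them beside 23.1% of all genes tested in both experiments. The knockdowns share their controls. Of the 170, 101 had the same sign in all 3 comparisons, 24 had both knockdowns opposite to the peptide and 45 had the knockdowns opposite to each other. The 2 knockdowns thus went one way in 73.5% of the 170, close to the 69.5% among all genes called in both. For the 101 that also shared the sign of the peptide difference, no share over all genes was computed. Their number therefore cannot be read as agreement beyond that of all genes. By size, the leading genes of the same sign were SLC14A1 (-1.34 in EloB KD and -2.26 in EloC KD), APOBEC3G (-0.76 and -2.45), ABCC9, a potassium channel regulator (0.80 and 3.92), LXN, an inhibitor of carboxypeptidases (-1.81 and -2.91), and DACH1 (-1.18 and -1.37). Against the scrambled peptide, however, ABCC9 was lower with the WT peptide (log2 -0.56, adjusted p 0.038 in limma), opposite to both knockdowns. APOBEC3G, LXN and DACH1 were called lower there too, and SLC14A1 was at -0.34 without a call. Those opposite in both were MMP10 (0.58 and 2.60), the elastase inhibitor PI3 (0.51 and 1.86), the netrin receptor UNC5D (0.67 and 0.45), the transglutaminase TGM2 (0.74 and 0.55) and SAPCD2 (-0.70 and -0.47). PLAT fell by 1.42 in EloB KD (adjusted p 2.71e-05) and was at 0.15 in EloC KD (adjusted p 0.294), and ABCG1 fell in both, by 0.91 (adjusted p 3.91e-05) and 0.57 (adjusted p 0.000244).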

How the data were processed

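Per the labels' protocols, PC3 RNA was sequenced from strand-specific mRNA libraries. The submitters' processing notes name featureCounts, DESeq2 and hg38; the aligner, versions and strand setting are not given in the sources used here. The authors deposited each library's signal as DESeq2-normalised counts per gene, in 1 table per experiment. Here log2 of each normalised count plus 1 was modelled in limma 3.58.1 (R 4.3.3, trend on mean level) over all 9 peptide libraries, with replicate number as a block, since the comparison is defined as paired. Tests were 2-sided, with Benjamini-Hochberg adjustment over 13105 genes and a threshold of 0.05; errors are SEs of log2 fold changes, with n = 3 per group. Fold changes are on the log2(value + 1) scale and understate low genes. An exact permutation test of 3 against 3 libraries cannot go below 0.1, and exact sign flips of the 3 pairs cannot go below 0.25. The smaller p-values therefore rest on the model. EloB KD and EloC KD were fitted likewise on their own 9 libraries.

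For the pairing, each library's deviations from its group mean were correlated between groups: libraries of the same number gave 0.254 to 0.715 (WT with mutant 0.347, 0.697 and 0.447), and other pairs of libraries -0.546 to 0.336. Reads recovered within 0.05 of whole numbers were used for edgeR 4.0.16 and DESeq2 1.42.0. Other alternatives were no block, 6 libraries only, TMM, quantile and total-read scaling, other pseudocounts, filters and thresholds, and leaving out libraries. The members, design and 44 gene lists were chosen with earlier results of these data known. Named genes are 7 Elongin and cullin genes, the 15 highest and 15 lowest fold changes among called genes with a mean of at least 50 and the same sign in all pairs, the 4 smallest p of each list, and the 5 largest of each sign class called in both knockdowns. Other genes named were chosen after their values were seen: called list members beyond those 4, SPC24 and CDK1. So were the 7 motifs, the 5 promoters printed, and the alternatives without a scrambled library or with edgeR or DESeq2 without the block. Where a promoter entry had several starts, the one listed earliest was used. Gene positions are from GENCODE 29 on GRCh38. A few genes are not reported here.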

Additional observations from a re-analysis of the deposited data

How the results depend on the processing

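None of the 107 named genes called changed sign under any alternative run. That was largely fixed beforehand, since 535 of the 536 called genes had 1 sign in all 3 pairs. Removing the block in limma also leaves the fold change itself as it was. Among the 107, 105 kept the call in edgeR with the replicate block and 71 in DESeq2 with it. The call was kept by 81 with the 6 WT and mutant libraries only, 100 under quantile and 101 under total-read scaling. Without the replicate block limma and edgeR kept 0 and DESeq2 19. The count of called genes was 0 without the block with 9 libraries or with 6 (781 at an unadjusted p under 0.05), 346 with 6 libraries and the block, 62 in DESeq2 without the block, 155 at an adjusted p under 0.01 and 21 with a 1.5-fold minimum. Leaving out 1 WT or mutant library gave 86 to 571 calls, and 80 genes were called in all 6 such fits. Leaving out a replicate number in all peptides gave 125 (number 1), 173 (number 2) and 658 (number 3), and leaving out scrambled replicate 2 gave 338. Over all these omissions the range was 86 to 658. Calls were 58.8% higher in the fit reported, 50.2% under quantile and 43.6% under total-read scaling, which moved the median of all genes to -0.01. Without the block, WT against scrambled had 188 calls instead of 2122, mutant against scrambled 0 instead of 1088 (1142 at an unadjusted p under 0.05; edgeR with the block 1116), EloB KD 2822 instead of 4996 and EloC KD 5844 instead of 7841. No alternative varied read depth.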

Other observations

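Gene families outside the lists were picked after their calls were seen, so they get counts and no test. Kinesins, the motor proteins of microtubules, had 10 of 34 members higher and 0 lower with the WT peptide (median log2 0.09), where 2.4% of all genes were called higher, among them KIF18B (0.24), which depolymerises astral microtubules, and KIFC3 (0.28). Tubulins had 4 of 14 higher and 0 lower: TUBB2A (0.32), TUBB4B (0.27), TUBA1B (0.17) and TUBB6 (0.17). TUBB4B had 26004, 27479 and 25723 normalised counts with the WT peptide and 21362, 23199 and 21026 with the mutant peptide, without overlap. Tubulin genes resemble each other closely, and how shared reads were counted is not given in the sources used here. KPNA2, a nuclear import receptor, and PRR11, a cell cycle protein, had the smallest p among higher genes (0.38 ± 0.04 and 0.43 ± 0.04, adjusted p 0.000194 and 0.000198 in limma).

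Other families had lower calls, where 1.69% of all genes were called lower, while 0 of 8 PC3 epithelial markers were called in limma, edgeR or DESeq2 (1 at an unadjusted p under 0.05 in limma). The protease inhibitors with a WAP domain had 3 of 4 members lower: PI3 (-0.44), WFDC3 (-0.31) and SLPI (-0.30). Serpins had 3 of 14 lower, with SERPINB7 at -0.39, SERPIND1 at -0.32 and SERPINB1 at -0.20. Of 3 mucosal trefoil factors TFF1 (-0.28) and TFF2 (-0.31) were lower, and of 4 epithelial sodium channel subunits SCNN1G (-0.54) and SCNN1B (-0.45). Of 16 integrins only ITGB4 (-0.45) and ITGA1 (-0.30) were called, both lower. TM4SF1, a tetraspanin-like surface protein, had 9402, 9681 and 9949 normalised counts with the WT peptide and 12988, 11973 and 13310.4 with the mutant peptide (log2 -0.40 ± 0.04, adjusted p 0.000192). The APOBEC3 deaminases had APOBEC3G and APOBEC3C (-0.40) lower of 4 tested.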
